A study of Mus musculus with 25 samples.

Results

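Livers of mice injected with PIK3CA E545K and called preneoplastic by the labels (5 arrays) were set against normal livers of mice injected with an empty vector (4 arrays). Both groups were 3 months old and of C57BL/6J x 129Sv background. These 9 arrays were taken by their titles from the 25 Illumina bead arrays of the series, which also hold livers of mice injected with PIK3CA H1047R, E545K tumours of 5 months and controls of 6 months. Total RNA of liver tissue was measured, so fewer cells of a type and less RNA per cell cannot be told apart. The labels give neither the promoter of the injected construct, the way it was delivered, the share of hepatocytes that took it up, the hour at which livers were collected nor whether each array came from its own animal. The p-values therefore measure the spread between these samples, which may be technical. The study's design text speaks of 5 controls of 3 months, and 4 were used here.

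PIK3CA encodes p110 alpha, the catalytic subunit of phosphoinositide 3-kinase, which carries the insulin signal to AKT and mTOR in liver. E545K lies in the helical domain and H1047R in the kinase domain, and both raise the enzyme's activity. In hepatocytes an active pathway is known to switch on fat synthesis through SREBP1 and to shut FoxO1, which drives glucose output, out of the nucleus. The liver also runs a circadian clock, in which CLOCK and BMAL1 drive E-box genes such as Dbp and Tef, and the receptors REV-ERB and ROR act on ROR elements of Bmal1 (named Arntl in the files) and Nfil3.

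All signals below are log2 values after background correction and quantile normalization, on which undetected probes lie at about 4 to 5. The 9 arrays detected 15225 to 16404 probes. The mean of 17 hepatocyte genes was 10.59 to 10.83 in E545K livers and 10.53 to 10.79 in controls. The Y-linked Eif2s3y was detected on all 9 arrays, at 9.10 to 9.84 in E545K livers and 8.97 to 9.98 in controls, and the 4 probes of Xist on none. Some arrays stood apart in genes of other cells or of inflammation. The mean of 15 skeletal muscle markers was 4.62 to 4.76 in E545K livers, against 5.12, 7.11, 7.17 and 10.45 in control replicates 1 to 4. The mean of 29 acute-phase genes was 10.15 to 10.59 in E545K livers, against 11.23 and 11.10 in control replicates 1 and 2 and 10.15 and 10.24 in replicates 3 and 4. The mean of 3 adipocyte markers was 9.09 in E545K replicate 4, against 5.87 to 6.56 in the other E545K livers and 5.30 to 7.01 in controls. Beyond the fits that left out such arrays, the part of these transcripts in the differences below was not tested.

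Apoa4, an apolipoprotein of triglyceride-rich particles and of HDL, fell in E545K livers to 0.281 of its control level. It was the 1 gene of 11594 that passed an adjusted p under 0.05 (0.00863% of genes), and no gene passed on the higher side (0%). Among genes that did not pass, the rhythmic gene Rgs16 had the largest difference on the higher side (3.28) and the muscle gene Myl1 the largest on the lower side (-5.02). Without adjustment 231 genes had p under 0.05 on the higher side (1.99%) and 305 on the lower side (2.63%) by limma, 536 in all (4.62%). The groups did not overlap for 83 genes higher (0.716%) and 111 lower (0.957%), and 20 genes were at least 2-fold higher (0.173%) and 48 lower (0.414%). For 93.5% of genes the 95% interval of the difference lay within 2-fold in either direction.

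The Apoa4 signal was 10.07, 9.50, 9.78, 10.52 and 10.20 in E545K livers, against 12.03, 11.70, 11.88 and 11.77 in controls. Every E545K liver lay below every control, and the controls lay close together. The difference was -1.83 (SE 0.20, adjusted p = 0.0167), with a 95% interval of -2.26 to -1.40. The other probes of Apoa4 gave -1.98 and -1.99. Its neighbours in the apolipoprotein cluster had differences of -0.12 for Apoa1, the main protein of HDL, 0.02 for Apoc3, an inhibitor of triglyceride clearance, and -0.11 for Apoa5, an activator of lipoprotein lipase. Their groups overlapped, as did those of Apob (0.18), Apoe (-0.01) and Mttp (0.07), which loads lipid onto APOB. Apoa1, Apoc3 and Apoe lay between 14.05 and 14.95 on these arrays, near the top of the scale, where differences are flattened. Apob and Mttp handle the secretion of triglyceride from hepatocytes. In the other groups Apoa4 was at 10.18 to 13.54 in H1047R livers of 3 months (median 10.37), at 14.15 to 14.68 in the E545K tumours and at 10.49 to 12.04 in the 6-month controls. The range of the 6-month controls just overlaps that of the E545K livers of 3 months. Against the 6-month controls the difference of the 3-month E545K livers was -1.38 (adjusted p = 0.629).

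The call of Apoa4 ended without E545K replicate 1 (adjusted p = 0.0861), 3 (0.0965) or 5 (0.0615) and without control replicate 1 (0.0573), 2 (0.0821), 3 (0.123) or 4 (0.103), with differences between -1.96 and -1.70 over all single omissions. In a fit that estimated the spread from all 25 arrays its adjusted p was 0.865, and the authors' deposited table gives -1.81 with an adjusted p of 0.964 and no probe under 0.05. Against control replicate 1 alone, which had the lowest muscle level and the highest acute-phase mean of the controls, Apoa4 differed by -2.01. A lone control gives no spread of its own.

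**Figure D1:**
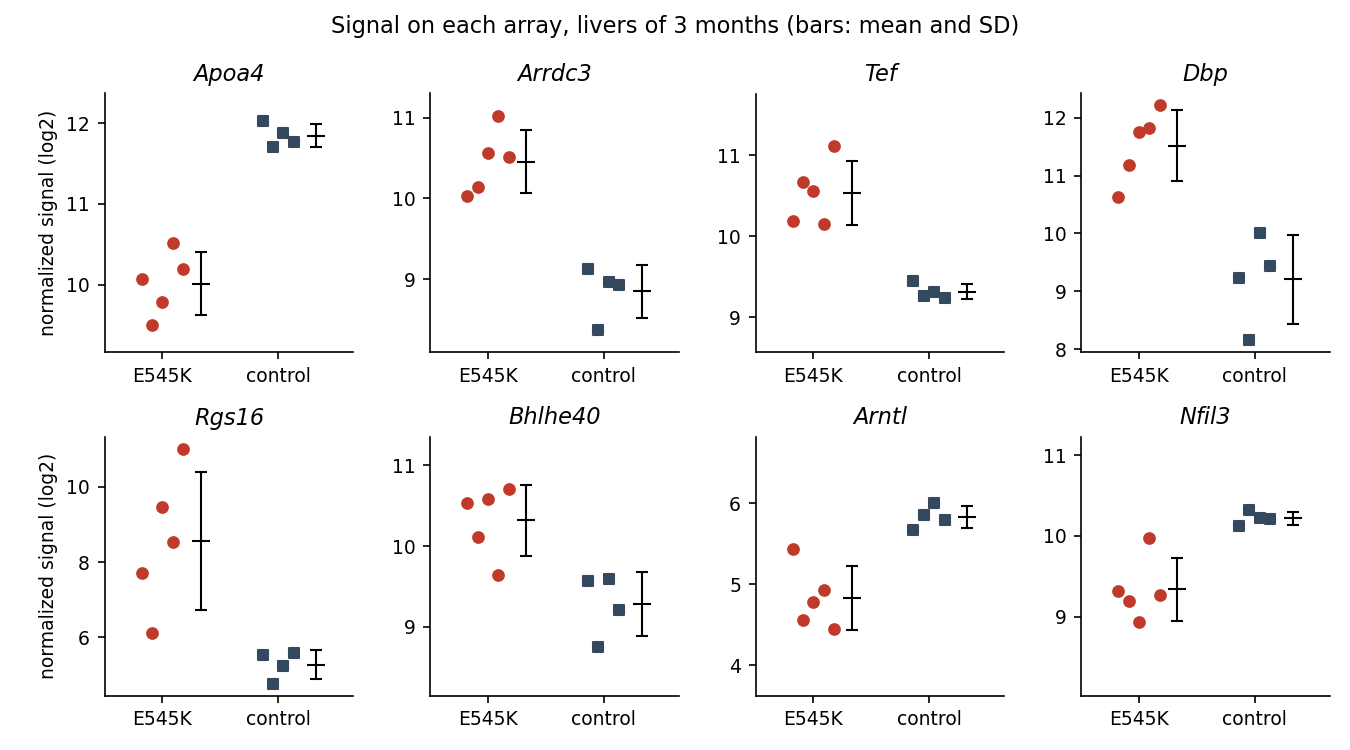
Normalized log2 signal (vertical axes) of 8 genes on each array, E545K livers (circles) left of controls (squares), bars giving the mean and SD. Apoa4 lies at 9.50 to 10.52 in E545K livers and at 11.70 to 12.03 in controls, and none of the 8 genes has overlapping groups. The 8 were picked among genes of small p. Over all genes the groups did not overlap for 0.716% on the higher side and 0.957% on the lower.

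Of the 10 genes with the smallest p on the higher side 3 were clock genes, given later, and Arrdc3 came nearest to passing. Arrdc3 encodes an arrestin-domain protein that guides receptors to breakdown. Its signal was 10.04, 10.14, 10.56, 11.02 and 10.52 in E545K livers, against 9.13, 8.37, 8.97 and 8.93 in controls, a difference of 1.61 (SE 0.22, adjusted p = 0.0735). The groups did not overlap. Arrdc3 passed under trended robust variances (adjusted p = 0.0311) and under array weights (0.0228). In H1047R livers of 3 months it lay at 9.52 to 10.10, a difference of 0.92 from the same controls. Cyp2a4, a steroid hydroxylase of mainly female liver, had 8.02, 6.87, 7.91, 6.28 and 7.53 in E545K livers, against 6.00, 5.13, 5.66 and 6.19 in controls, a difference of 1.58 (SE 0.36, adjusted p = 0.596). Its lowest E545K liver lay just above its highest control. The rest were Slc5a6, the transporter of biotin and pantothenate (0.79), Pdhb, a subunit of pyruvate dehydrogenase (0.72), and the sorting protein Pacs1 (0.71). Slc20a1, a phosphate transporter, and Vipas39, a vesicle-sorting protein, were not well above background on any control array and were at least 1.47-fold and 1.27-fold higher. All had an adjusted p of 0.596.

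On the lower side, with Apoa4 the only gene to pass, Sorl1 and Lifr lie outside the rule for named genes and were chosen with their values known. Sorl1, a sorting receptor, was not well above background on any of the 5 E545K arrays (4.31 to 4.67) and was detected on all 4 controls (5.20 to 5.65). It was at least 1.59-fold lower with an adjusted p of 0.0735, and it passed under array weights (0.0228). Lifr, the receptor of leukaemia inhibitory factor, lay at 5.91 to 6.57 in E545K livers and 6.91 to 8.33 in controls, a difference of -1.23 (SE 0.28, adjusted p = 0.596). Its 3 probes gave -1.23 to -1.31. Against the 6-month controls the E545K livers differed by -0.28 for Lifr and -0.44 for Sorl1. From the 3-month controls the 6-month controls differed by -0.95 for Lifr and -0.54 for Sorl1. H1047R livers of 3 months differed from the 3-month controls by -0.67 for Lifr and -0.49 for Sorl1.

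Of 22 listed clock genes 18 were tested, and 8 were higher and 2 lower in E545K livers at an unadjusted p under 0.05, where 1.99% and 2.63% of all genes were. By limma 0 passed the adjusted threshold. The list, which includes the rhythmic gene Rgs16, was chosen with earlier results of these data known. These counts are therefore no independent test. The groups did not overlap for 4 higher and 2 lower clock genes, as for 0.716% and 0.957% of all genes. The median difference of the 18 was 0.40, beside -0.01 over all genes. The 4 others, Bhlhe41, Cry1, Hlf and Npas2, have probes that were detected on too few arrays of the series.

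The PAR-domain factors Dbp and Tef, which are driven by CLOCK and BMAL1 and bind D-box elements, were higher on every E545K array than on any control array. Dbp had 10.63, 11.19, 11.75, 11.82 and 12.22 in E545K livers, against 9.23, 8.15, 10.01 and 9.43 in controls, a difference of 2.32 (SE 0.38, adjusted p = 0.188). The spread of Dbp was wide in both groups. Tef had 10.18, 10.68, 10.56, 10.15 and 11.11 in E545K livers, against 9.45, 9.26, 9.31 and 9.24 in controls, a difference of 1.22 (SE 0.19, adjusted p = 0.164). Its controls lay close together.

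Rgs16, a brake on G protein signals with a daily rhythm in liver, showed the largest difference of any tested gene on the higher side. It had 7.70, 6.10, 9.45, 8.54 and 11.01 in E545K livers, against 5.52, 4.76, 5.23 and 5.59 in controls, a difference of 3.28 (SE 0.76, adjusted p = 0.609). The E545K livers were spread widely, and the 95% interval ran from 1.61 to 4.96. Bhlhe40, a repressor acting on E-boxes, had 10.54, 10.12, 10.58, 9.65 and 10.71 in E545K livers, against 9.57, 8.75, 9.59 and 9.21 in controls, a difference of 1.04 (SE 0.25, adjusted p = 0.707). Its groups were just separate. The other 4 with an unadjusted p under 0.05 had overlapping groups. They were Usp2, a deubiquitinase under clock control (1.73), Ciart, a repressor of the clock (0.91), Per2, a core repressor (0.84), and Nr1d2, which encodes REV-ERB beta (0.60).

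Genes of the opposite clock phase lay on the lower side. Arntl, which encodes BMAL1, had 5.44, 4.56, 4.78, 4.93 and 4.44 in E545K livers, against 5.68, 5.86, 6.01 and 5.80 in controls, a difference of -1.004 (SE 0.20, adjusted p = 0.596). It was detected on 2 of 5 E545K arrays and 4 of 4 control arrays, so its level in E545K livers is at the edge of detection. Nfil3, which represses the D-box elements that DBP and TEF activate, had 9.32, 9.20, 8.93, 9.98 and 9.27 in E545K livers, against 10.12, 10.32, 10.22 and 10.20 in controls, a difference of -0.88 (SE 0.19, adjusted p = 0.596). For both genes every E545K liver was below every control. Clock (-0.14), Per1 (0.29), Per3 (0.30), Cry2 (0.46), Nr1d1 (0.35), Rora (0.23) and Noct (-0.17) had intervals that included 0.

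**Figure D2:**
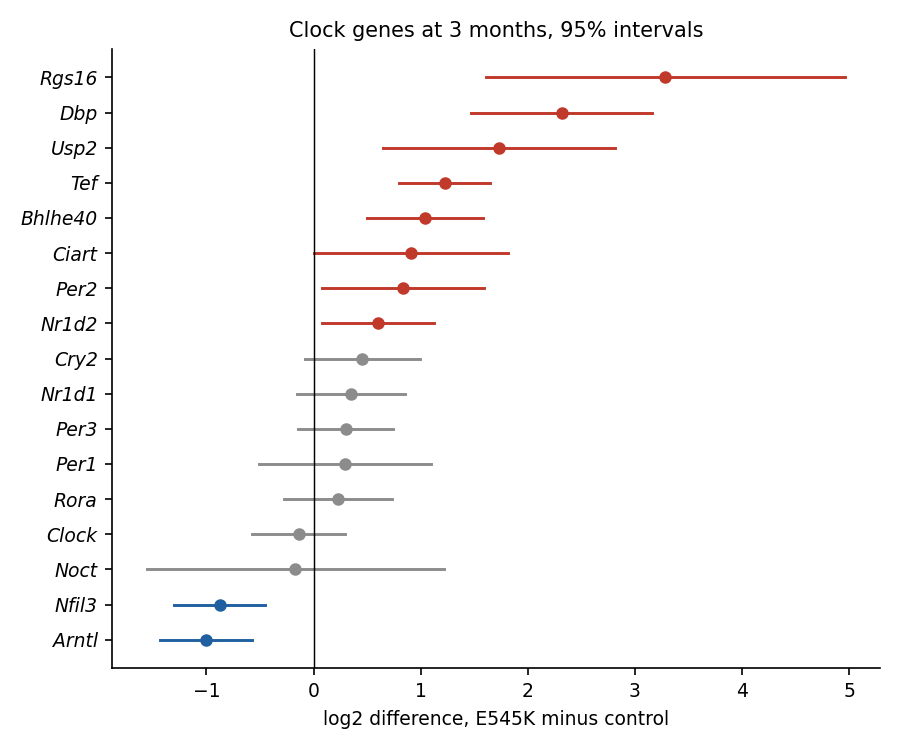
Difference between E545K and control livers of 3 months (horizontal axis, log2) for 17 of the 18 clock genes tested, with 95% intervals; genes with an unadjusted p under 0.05 are red (higher) or blue (lower) and the others grey. Rgs16 (3.28) and Dbp (2.32) lie highest, Nfil3 (-0.88) and Arntl (-1.004) lowest.

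Promoters of genes of both phases are shown because their differences ran in opposite directions, with that of Apoa4, the gene that passed. The sequences are those of RefSeq (GRCm38.p6), from 250 bases before to 50 after a transcript's start, and capitals mark the E-box CACGTG or the core of the ROR element, TAGGTCA, found on either strand. Tef lies at chr15:81802423-81802722 on the plus strand (1 of 2 listed starts, each with an E-box), Dbp at chr7:45704997-45705296 (plus) and Arntl at chr7:113207261-113207560 (plus, 1 of 2 listed starts, the other without either motif). Nfil3 lies at chr13:52980990-52981289 (minus) and Apoa4 at chr9:46240594-46240893 (plus).
Tef: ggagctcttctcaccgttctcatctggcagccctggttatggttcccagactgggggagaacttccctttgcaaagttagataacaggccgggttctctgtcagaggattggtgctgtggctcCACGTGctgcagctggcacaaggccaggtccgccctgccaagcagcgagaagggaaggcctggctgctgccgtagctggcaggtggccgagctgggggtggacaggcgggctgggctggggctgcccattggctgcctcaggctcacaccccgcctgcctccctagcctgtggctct
Dbp: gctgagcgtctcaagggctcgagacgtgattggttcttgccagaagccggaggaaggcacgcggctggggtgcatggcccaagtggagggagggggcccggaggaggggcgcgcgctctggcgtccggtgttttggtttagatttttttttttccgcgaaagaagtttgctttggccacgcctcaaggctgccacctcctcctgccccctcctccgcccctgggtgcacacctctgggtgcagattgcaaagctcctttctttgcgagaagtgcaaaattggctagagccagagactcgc
Arntl: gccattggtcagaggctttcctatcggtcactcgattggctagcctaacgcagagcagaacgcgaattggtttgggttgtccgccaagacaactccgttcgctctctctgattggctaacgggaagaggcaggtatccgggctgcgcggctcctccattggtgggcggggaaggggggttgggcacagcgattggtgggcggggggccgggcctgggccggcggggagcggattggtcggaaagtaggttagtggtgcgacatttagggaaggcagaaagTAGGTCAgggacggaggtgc
Nfil3: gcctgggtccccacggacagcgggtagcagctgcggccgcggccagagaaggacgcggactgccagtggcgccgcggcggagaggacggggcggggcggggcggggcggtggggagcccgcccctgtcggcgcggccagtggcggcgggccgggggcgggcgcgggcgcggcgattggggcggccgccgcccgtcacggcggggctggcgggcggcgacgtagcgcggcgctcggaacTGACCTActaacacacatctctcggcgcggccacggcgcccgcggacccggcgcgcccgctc
Apoa4: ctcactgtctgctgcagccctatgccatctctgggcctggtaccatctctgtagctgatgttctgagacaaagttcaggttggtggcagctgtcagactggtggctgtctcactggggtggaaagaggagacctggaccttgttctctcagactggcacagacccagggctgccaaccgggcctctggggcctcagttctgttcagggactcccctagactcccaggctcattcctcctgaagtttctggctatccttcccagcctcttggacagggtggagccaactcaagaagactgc

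Tef held 1 E-box, Arntl and Nfil3 each 1 ROR core, and the windows of Dbp and Apoa4 held neither motif. Ciart held 3 E-boxes, and those of Rgs16, Usp2 and Nr1d2 none of either motif. Among 32851 mouse promoters of RefSeq, 7.15% held the E-box and 2.61% the ROR core. Of 24 promoters of 19 listed clock genes 6 (25%) held the E-box and 2 (8.33%) the ROR core. These matches describe the letters of the windows.

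The 6-month controls spread widely in clock genes, with Dbp at 7.91 to 12.63 and Rgs16 at 8.14 to 10.63. Against them 0 of the 18 clock genes were higher in the E545K livers of 3 months and 2 lower at an unadjusted p under 0.05, where 527 of all 11594 genes were higher and 362 lower (7.67% in all). The differences were 0.79 for Dbp, 0.57 for Tef and -0.77 for Rgs16. With controls of both ages as a group 2 clock genes were higher and 1 lower, where 250 of all genes were higher and 147 lower (3.42%). The 6-month controls were themselves apart from the 3-month controls, by 1.53 for Dbp, 0.66 for Tef and 4.05 for Rgs16 (adjusted p = 0.0266 for Rgs16). H1047R livers of 3 months, which share the 3-month controls, had differences from them of 0.80 for Dbp, 0.18 for Tef, 2.96 for Rgs16 and -0.37 for Arntl. Their differences were 0.69 for Bhlhe40, 0.84 for Per2, 0.63 for Usp2, 0.18 for Ciart, 0.01 for Nr1d2 and -0.26 for Nfil3. Age and hour of collection cannot be told apart here, since the labels give no hour. For the same reason mutation and hour of collection cannot be told apart in the clock genes of the 3-month livers.

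Within the 3-month livers the counts of clock genes at an unadjusted p under 0.05 were 5 to 10 higher, with 2 lower each time, on leaving out single arrays, where 3.35% to 6.07% of all genes had such a p. They were 6 higher and 2 lower without control replicates 1 and 2, the pair with the high acute-phase means (3.11% of all genes), and 11 higher and 2 lower without E545K replicates 1, 2 and 3, where 11.6% of all genes had an unadjusted p under 0.05. Those 3 livers have the lowest sample numbers of the 9 arrays in the labels. With them left out Usp2 passed (2.83, adjusted p = 0.0159). Against control replicate 1 alone, the one with the lowest muscle level, 3 were higher and 0 lower, where 247 of all genes were higher and 312 lower (4.82%). That fit takes the spread from the E545K livers and assumes that the lone control varies like them.

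Of 31 tested PI3K, AKT and mTOR components 0 were higher and 3 lower at an unadjusted p under 0.05 (9.68% in either direction), with a median of -0.02. The shares over all genes, 1.99% higher, 2.63% lower and 4.62% in either direction, also apply to the list counts of E545K livers against controls given after it. For 29 of the 31 the 95% interval lay within 2-fold in either direction (93.5%), the same share as over all genes (93.5%). Pik3ca itself had 4.87, 4.34, 4.67, 5.47 and 4.43 in E545K livers, against 4.34, 4.53, 4.77 and 4.46 in controls. It was detected on 2 of 5 E545K and 1 of 4 control arrays, close to background. No source says whether its probe reads the injected construct, so it checks nothing about the injection. The 3 lower genes were Pik3r2, a regulatory subunit (-0.40), Deptor, an inhibitor of mTOR (-0.31), and Rps6kb1, the S6 kinase. Rps6kb1 was detected on 0 of 5 E545K and 2 of 4 control arrays and was at least 1.09-fold lower. Other probes gave -0.06 for Pik3r2 and 0.02 for Deptor, at mean signals of 5.14 and 4.76. Irs2, an insulin receptor substrate and FoxO1 target, had 8.17, 8.27, 7.94, 8.59 and 9.59 in E545K livers, against 9.11, 10.11, 8.46 and 9.30 in controls, and the groups overlapped.

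Of 14 tested genes that insulin represses through FoxO1, 0 had an unadjusted p under 0.05 in either direction, and the median was -0.02. Differences were -0.19 for Pck1 and 0.12 for G6pc1 (G6pc in the files), the enzymes that open and close gluconeogenesis, and -0.41 for Igfbp1, an IGF-binding protein. For 11 of the 14 the 95% interval lay within 2-fold, where it did for 93.5% of all genes.

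In fat synthesis Fasn, the fatty acid synthase, was the 1 gene of 24 with an unadjusted p under 0.05. Fasn had 5.58, 5.66, 6.12, 6.02 and 6.39 in E545K livers, against 5.32, 5.04, 5.48 and 4.98 in controls, a difference of 0.75 (SE 0.19, adjusted p = 0.721). Every E545K liver was above every control, at signals not far above those of undetected probes. Against the 6-month controls, which lay at 4.27 to 7.45, Fasn in these E545K livers differed by 0.04. The median of the 24 was 0.14, with 15 above 0, where 5652 of all 11594 genes were. Srebf1, which encodes SREBP1, differed by -0.18, and Acaca and Acly, enzymes before fatty acid synthase, by 0.22 and 0.06. Scd1, the stearoyl-CoA desaturase, lay at 13.93 to 14.47 over all 9 arrays, near the top of the scale, where differences are flattened.

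Of 17 tested genes of lipid droplets and fatty acid uptake 15 had differences above 0, where 5652 of all 11594 genes did. The median of the 17 was 0.25, and 1 had an unadjusted p under 0.05. That gene was Cidec, a protein that fuses lipid droplets, with 7.49, 5.33, 5.89, 8.01 and 5.13 in E545K livers, against 4.36, 5.24, 5.49 and 4.86 in controls. E545K replicates 1 and 4 stood high and the other 3 were at the level of the controls or just above. Its relative Cidea showed the same pair, with 6.84, 4.62, 5.00, 7.55 and 4.74 in E545K livers, and was not well above background on any control array (at least 1.99-fold higher, adjusted p = 0.9999). Replicate 4 also carried the adipocyte genes Adipoq, a fat cell hormone (8.78, against 4.32 to 4.56 in the other E545K livers and 4.38 to 5.95 in controls), and Lep (6.73). In replicate 1, the other liver with high Cidea and Cidec, Adipoq was at 4.47 and Lep at 4.38. Cfd, the remaining adipocyte marker tested, was at 10.83, 8.83, 9.93, 11.76 and 8.60 in E545K livers, against 6.81, 10.51, 9.37 and 9.34 in controls, highest in replicate 4 and next in replicate 1. The part of fat tissue in either liver was not tested. Pparg, which drives both Cide genes in fatty liver, differed by 0.66 and G0s2, an inhibitor of lipolysis, by 1.38.

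**Figure D3:**
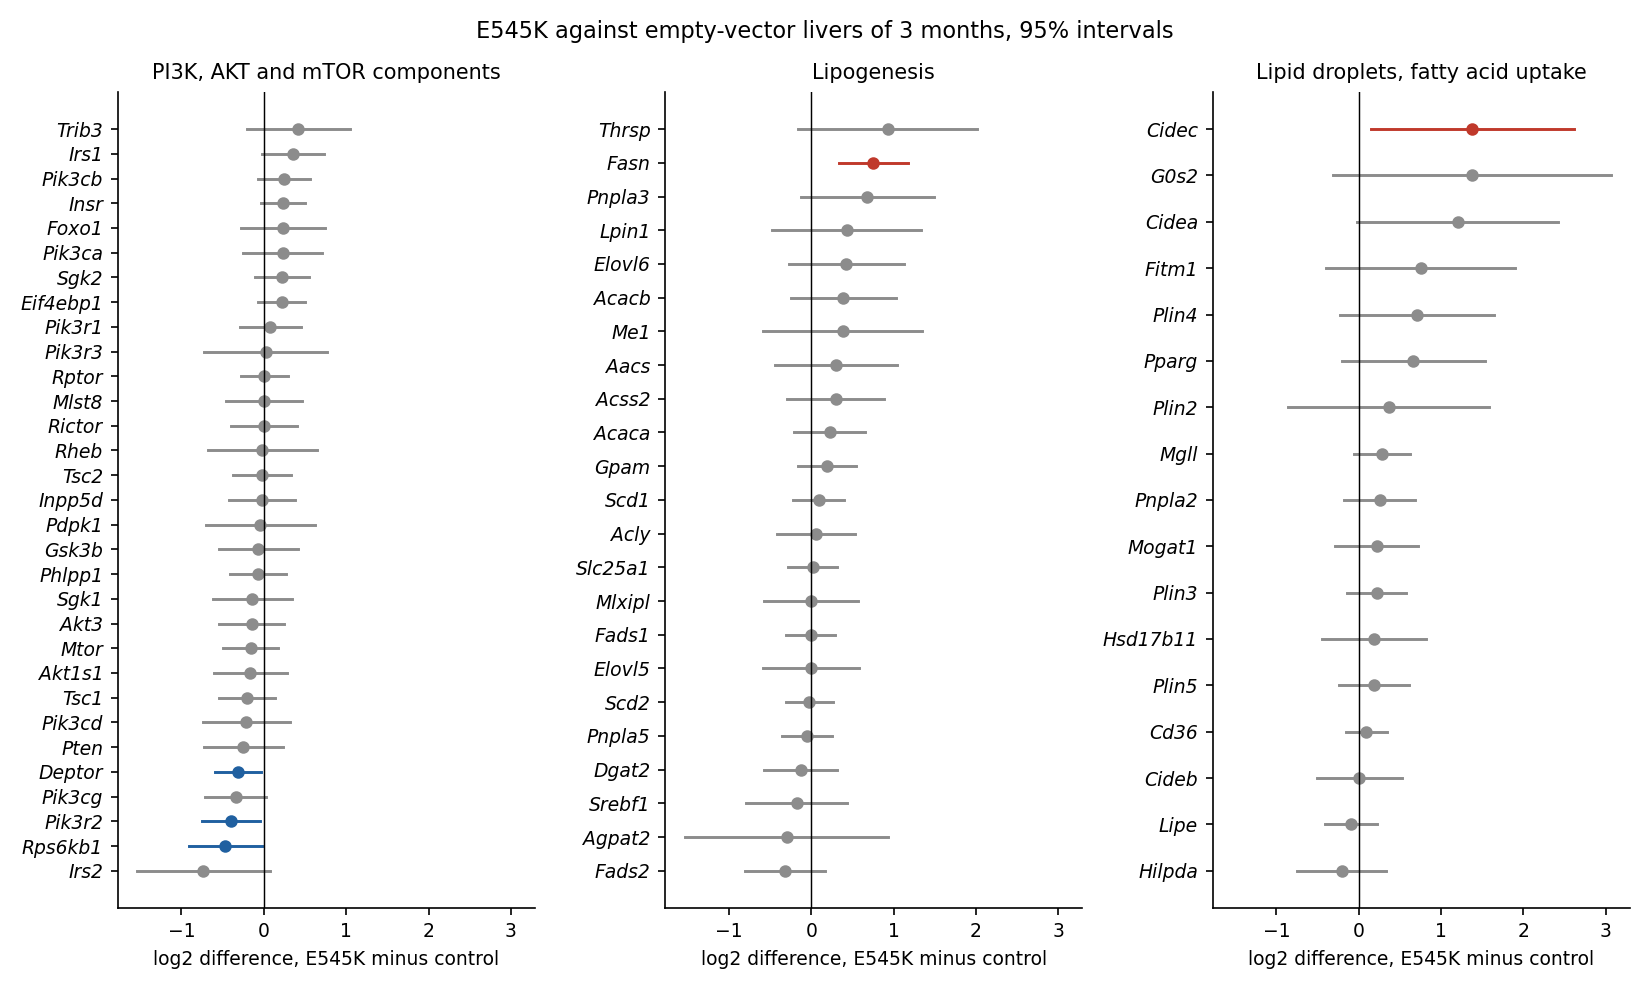
Differences between E545K and control livers of 3 months (horizontal axes, log2) with 95% intervals for 31 PI3K, AKT and mTOR components, 23 of the 24 genes of lipogenesis and 17 genes of lipid droplets; coloured genes have an unadjusted p under 0.05. Most intervals include 0, and Fasn (0.75) and Cidec (1.38) are the coloured genes above it.

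Of 26 tested genes of fatty acid oxidation 21 had differences above 0, where 5652 of all 11594 genes did. The median of the 26 was 0.13, and 2 had an unadjusted p under 0.05. They were Ppara, which encodes their activating receptor, and Fgf21, a hormone it induces. Ppara had 6.47, 6.50, 6.51, 6.14 and 6.73 in E545K livers, against 5.79, 5.82, 5.86 and 6.05 in controls, a difference of 0.59 (SE 0.14, adjusted p = 0.712), and its groups did not overlap. Fgf21 had a difference of 0.96 with overlapping groups. In cholesterol synthesis 0 of 23 were higher and 2 lower, Dhcr7 (-0.59) and Lss (-0.53), enzymes of its late and middle steps. In glycolysis and the pentose phosphate pathway 1 of 23 was higher, Rpia (0.59), and 2 lower, the glucose transporter Slc2a1 (-0.43) and the hexokinase Hk2 (-0.79). Hk2 is abundant in muscle and was highest in control replicate 4 (8.04), the one with the most muscle RNA. The part of muscle RNA in it was not tested.

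Among all 11594 genes 5652 differences lay above 0 and 5942 below. Of 16 pericentral genes 15 lay above 0 (median 0.17), with 1 at an unadjusted p under 0.05 (Rgn, 0.46). Of 15 periportal genes 12 lay below 0 (median -0.16), with 1 lower at that threshold. The periportal gene was Sds, serine dehydratase, at 9.99 to 10.44 in E545K livers and 10.49 to 11.62 in controls (-0.75). Glul, glutamine synthetase of the last pericentral row, differed by 0.14 and Cyp7a1, the rate-limiting enzyme of bile acid synthesis, by 0.91 with overlapping groups. Slc10a1, the bile acid importer, differed by 0.54. Among 18 drug-metabolizing P450 genes and their partners 3 were higher and 1 lower at an unadjusted p under 0.05, against 1.99% and 2.63% of all genes. Por, which feeds electrons to all microsomal P450s, had 10.43, 10.43, 10.73, 10.71 and 10.94 in E545K livers, against 10.10, 10.22, 9.68 and 10.01 in controls, a difference of 0.64 (SE 0.16, adjusted p = 0.721). Its groups did not overlap. The others were Cyp2a5 (1.06), Cyp2c37 (0.47) and Cyp2c70 (-0.45). Cyp2a4 and Cyp2a5 are close paralogs, and whether their probes tell them apart was not tested.

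Of 15 male-biased genes 0 were higher and 2 lower at an unadjusted p under 0.05, Elovl3 and Cyp4a12b (-0.42), against 1.99% and 2.63% of all genes. Elovl3, which lengthens very long fatty acids, had 9.21, 9.07, 9.28, 9.29 and 8.63 in E545K livers, against 9.85, 9.36, 10.01 and 10.44 in controls, a difference of -0.82 (SE 0.22, adjusted p = 0.898), with groups that did not overlap. Hsd3b5, a steroid reductase of male liver, lay at 11.41 to 12.09 in E545K livers and 11.67 to 12.36 in controls. Of 10 female-biased genes Cyp2a4 was the 1 with an unadjusted p under 0.05. Cyp2b9 was detected on 3 of 5 E545K arrays and 0 of 4 control arrays, at 7.03 in replicate 5 and 4.43 to 5.39 in the other E545K livers. In the growth hormone axis Igf1 differed by -0.46 and Jak2 by 0.49, the 1 lower and 1 higher of 14. The other probes gave -0.39 and 0.25 for Igf1 and 0.08 for Jak2.

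Of 24 genes of DNA replication and mitosis 0 had an unadjusted p under 0.05, the median was -0.03 and 23 had intervals within 2-fold, where 93.5% of all genes did. Mki67, a marker of cycling cells, was below detection on all 9 arrays. Ccnd1, cyclin D1, lay at 9.80 to 11.14 in E545K livers and 9.41 to 11.24 in controls. Cdkn1a, the inhibitor p21, had 5.71, 5.51, 5.16, 5.05 and 5.01 in E545K livers, against 6.38, 6.37, 5.57 and 5.97 in controls, a difference of -0.79 (SE 0.21, adjusted p = 0.900). Its other probes gave -0.37 and -0.09, at mean signals of 5.12 and 4.42. The list of D cyclins, CDK inhibitors and p53 targets had 1 higher and 1 lower of 15, against 1.99% and 2.63% of all genes. Of 29 interferon genes and of 17 immediate early genes 0 had an unadjusted p under 0.05. NRF2 targets had 1 of 16 higher (Abcc4, a drug exporter, 0.73), and stress genes of ATF4 and the unfolded protein response 1 higher and 1 lower of 22 (Fgf21, and Ddit3 with -0.64).

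The controls differed among themselves in acute-phase genes. Saa1, serum amyloid A, had 10.20, 11.21, 9.12, 10.46 and 9.49 in E545K livers, against 14.19, 14.19, 9.45 and 9.96 in controls, and Lcn2, lipocalin 2, 6.10, 6.65, 5.88, 6.19 and 6.46 in E545K livers, against 10.53, 8.72, 5.17 and 7.03 in controls. For both, control replicates 1 and 2 were the 2 highest of the 9 arrays and replicates 3 and 4 lay among or near the E545K livers. The differences were -1.85 (SE 0.97, adjusted p = 0.9999) for Saa1 and -1.61 (SE 0.82, adjusted p = 0.9999) for Lcn2. Of 29 acute-phase genes 1 was higher and 1 lower at an unadjusted p under 0.05, Il1rn (0.52) and Fgb (-0.41), against 1.99% and 2.63% of all genes, with a median of -0.16.

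Skeletal muscle transcripts lay in the controls in unequal amounts. Of 15 tested markers 12 had an unadjusted p under 0.05, all lower in E545K livers, where 2.63% of all genes were, with a median of -3.11. By limma 0 of them passed the adjusted threshold. Myl1, a myosin light chain, had 4.26, 4.32, 4.36, 6.14 and 4.33 in E545K livers, against 6.31, 9.43, 9.87 and 13.21 in controls, a difference of -5.02 (SE 1.04, adjusted p = 0.596). Control replicate 4 carried the most muscle RNA and replicate 1 the least. Acta1, skeletal actin, Mb, myoglobin, and Pvalb, parvalbumin, were not well above background on any E545K array and were at least 15.4-fold, 10.2-fold and 8.80-fold lower. The controls of Acta1 were 5.46, 8.60, 8.62 and 12.21. Tnni2, a troponin of fast fibres, differed by -4.34. H1047R livers of 3 months also carried it unevenly, with list means of 4.71 to 9.64, and the 6-month controls had 4.61 to 6.99. Leaving these markers out of the fit did not change the count of genes that passed. Each gene was fitted on its own, so this cannot show what muscle RNA did to other genes.

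**Figure D4:**
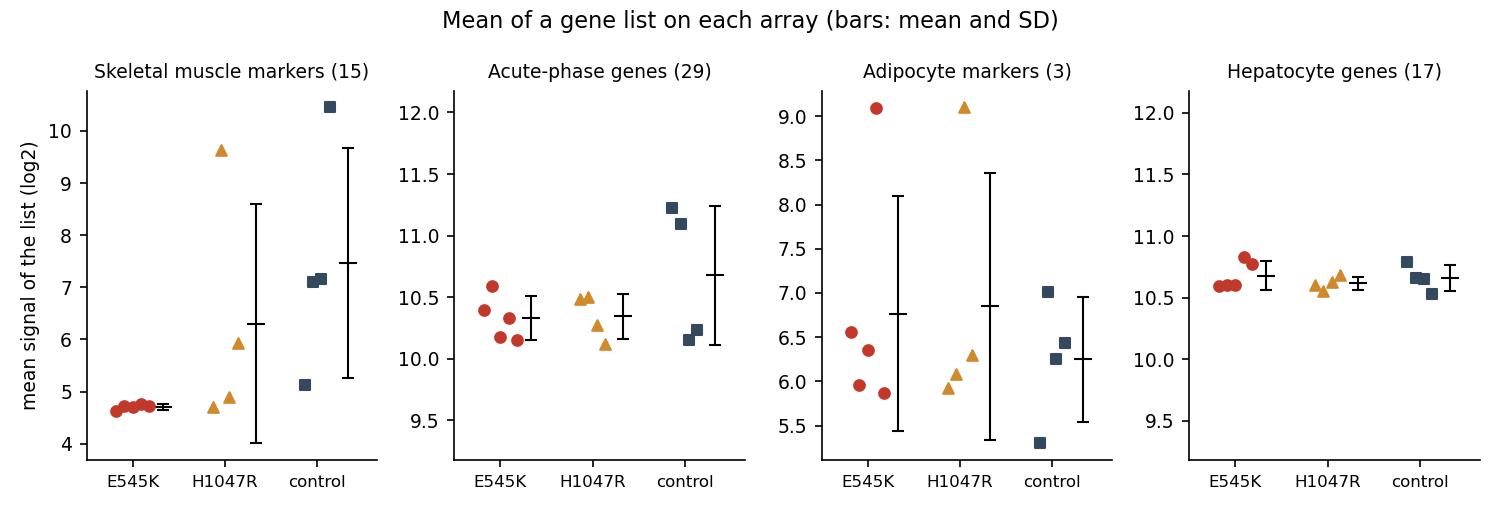
Mean log2 signal (vertical axes) of 4 gene lists on each array of E545K, H1047R and control livers of 3 months, bars giving the mean and SD. Muscle markers are at 4.62 to 4.76 in E545K livers and up to 10.45 in a control, acute-phase genes are high in 2 controls, adipocyte markers in 1 E545K and 1 H1047R liver, and hepatocyte genes are level.

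Of 12 tested macrophage markers 0 had an unadjusted p under 0.05 (median -0.27), nor did any of 15 endothelial or 6 neutrophil markers (medians 0.00 and 0.02). Of 6 lymphocyte markers Cd79b of B cells (0.44) and Cd3g of T cells (0.40) were higher at that threshold, near background, where 1.99% of all genes were. Of 16 stellate cell and matrix markers Des was lower (-0.88), highest in control replicate 4 (8.15), the one with the most muscle RNA. Desmin is also a muscle protein.

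The genes that set E545K tumours of 5 months apart were looked up at 3 months. Against the 6-month controls, which share no array with the 3-month comparison, 2309 genes passed in the tumours (19.9%). Of the 1274 higher ones, 24 were higher (1.88%) and 44 lower (3.45%) in the 3-month livers at an unadjusted p under 0.05, with a median difference of -0.03. Of the 1035 lower ones, 25 were higher (2.42%) and 34 lower (3.29%). Among all genes these shares were 1.99% and 2.63%. Apoa4 was the 1 tumour gene that passed at 3 months, and it went the other way, 3.06 higher in tumours (adjusted p = 1.2e-05).

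Of 18 oncofetal and tumour markers 0 were higher and 2 lower at 3 months at an unadjusted p under 0.05, against 1.99% and 2.63% of all genes. Afp, the fetal relative of albumin, was detected on 1 of 5 E545K arrays (4.82) and on no control array. Gpc3, a fetal glypican, had 5.12, 5.21, 5.36, 6.66 and 5.86 in E545K livers, against 5.29, 5.49, 4.79 and 5.57 in controls. Spink1, a trypsin inhibitor 7.39 higher in tumours, had 4.73, 5.33, 4.76, 4.65 and 4.79 in E545K livers of 3 months, against 7.49, 7.62, 5.16 and 5.58 in controls, a difference of -1.61 (SE 0.47, adjusted p = 0.909). As with Saa1, control replicates 1 and 2 were highest. H19, an imprinted fetal RNA, differed by -1.24 and was highest in control replicate 4 (8.03), the one with the most muscle RNA. Hsd3b5, 7.28 lower in tumours, differed by -0.22 at 3 months.

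**Figure D5:**
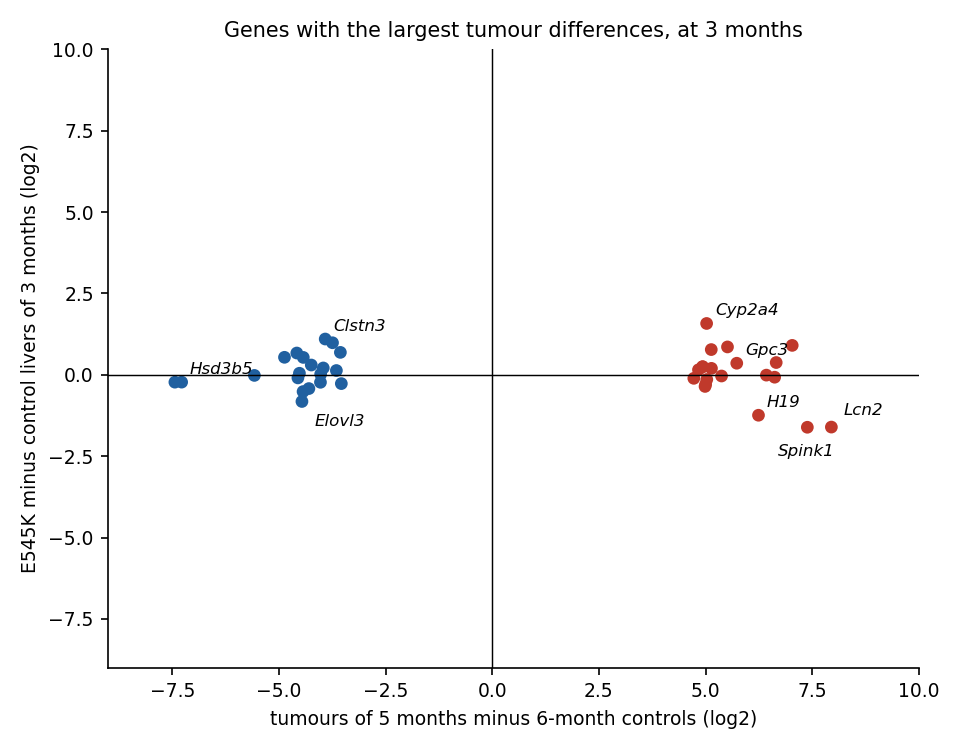
Differences at 3 months (vertical axis, log2, E545K minus control) against differences of the E545K tumours of 5 months from 6-month controls (horizontal axis, log2) for the 20 highest and 20 lowest tumour genes. Tumour differences run from -7.44 to 7.95, while those at 3 months stay between -1.61 and 1.58.

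Set directly against H1047R preneoplastic livers of the same age, injected with the other mutation, 0 genes passed (0%) in either direction, with a smallest adjusted p of 0.671. At an unadjusted p under 0.05 limma gave 322 genes higher in E545K livers (2.78%) and 391 lower (3.37%), 713 in all (6.15%). The groups did not overlap for 109 genes higher (0.94%) and 154 lower (1.33%). Hipk2, a kinase that acts on p53, had 7.08, 6.94, 6.97, 6.83 and 6.97 in E545K livers, against 7.61, 7.66, 7.87 and 7.61 in H1047R livers, a difference of -0.73 (SE 0.12, adjusted p = 0.671). Cdkn1a had 5.71, 5.51, 5.16, 5.05 and 5.01 in E545K livers, against 7.94, 6.71, 6.04 and 6.57 in H1047R livers, a difference of -1.53 (SE 0.32, adjusted p = 0.671). The groups did not overlap for either gene. Among D cyclins, CDK inhibitors and p53 targets 0 of 15 were higher and 4 lower, and among 24 genes of DNA replication 0 were higher and 5 lower, against 2.78% and 3.37% of all genes. Markers of some other cells lay mostly on the lower side, where 6046 of all 11594 genes lay below 0. Those of lymphocytes (4 of 6 above 0) and erythroid cells (4 of 5 above 0) did not. All 12 tested macrophage markers were below 0 (median -0.44, 0 at an unadjusted p under 0.05), with list means of 6.19 to 7.15 in E545K livers and 6.36 to 7.53 in H1047R livers. Of 16 stellate cell and matrix markers 15 were below 0 (median -0.33, 3 at that threshold), with list means of 6.82 to 7.41 in E545K livers and 7.38 to 7.61 in H1047R livers. All 15 muscle markers were below 0 (median -1.62, 1 at that threshold). Of these 11 were at least 2-fold lower, as were 39 of all 11594 genes. The part of macrophages, stellate cells and muscle in the counts was not tested. On the higher side Cyp2a4 had a difference of 1.48 (SE 0.32, adjusted p = 0.671) and Tef one of 1.04 (SE 0.24, adjusted p = 0.671), both with groups that did not overlap, and of 18 clock genes 4 were higher and 2 lower.

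Among lipid droplet genes Cidea had 6.84, 4.62, 5.00, 7.55 and 4.74 in E545K livers, against 11.82, 10.22, 9.65 and 5.46 in H1047R livers, a difference of -3.54 (SE 1.10, adjusted p = 0.704). Of the 4 H1047R livers 3 lay above every E545K liver and 1 lay among them. Cidec had a difference of -1.16 (SE 0.71, adjusted p = 0.843), and of the 17 genes 0 were higher and 1 lower at an unadjusted p under 0.05, against 2.78% and 3.37% of all genes. Pik3ca, Srebf1, Scd1, Hsd3b5 and Gpc3 differed by 0.05, -0.01, 0.01, 0.01 and 0.00. For Fasn the E545K livers lay within the range of the H1047R livers (4.75 to 6.42).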

How the data were processed

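Illumina bead arrays measured the RNA of 25 liver samples. The deposited table holds scanner intensities of 45281 probes with a detection p-value for each, and a deposited table of processed intensities holds the authors' normalized values of the same arrays. The authors' deposited comparison tables give log2 differences and p-values. Here the intensities were corrected and quantile normalized over all 25 arrays with neqc of limma 3.58.1 (R 4.3.3, offset 16), whose output is on a log2 scale where the deposited intensities are linear. A probe entered if its detection p-value was under 0.05 on 4 or more arrays, and each gene was taken at its probe of highest mean, which left 11594 genes. Symbols were updated for 658 probes through RefSeq (GRCm38.p6). The 9 arrays were compared with lmFit and eBayes of limma, with Benjamini-Hochberg adjustment over all 11594 genes and 95% intervals. The code was tested on simulated data. The number of arrays limits the precision, with a median half-width of the interval of 0.402.

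The genes named are the 10 highest and 10 lowest that pass without overlap (where none pass on a side, the 10 of smallest p detected on every array of a group), up to 4 of smallest p per list, and fixed anchors. Other list members are named beside them, and a few genes are not reported here. The members and the 34 lists were chosen with earlier results of these data known. A gene not well above background on any array of a group has a bound, from the lowest signal among detected probes of each array, written as "at least". Alternatives covered background, normalization, filter, probe choice, variance model, array weights, blocks, control age and left-out arrays.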

Additional observations from a re-analysis of the deposited data

Results flagged for a closer look

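A single array stood far from the others of its group in 7 of 159 checks by Dixon's test, where chance gives about 1 in 20. In E545K replicate 4 the mean of the adipocyte markers was 9.091 (nearest 6.562), that of the oncofetal markers 5.715 (nearest 5.39) and Myl1 6.139 (nearest 4.36). In E545K replicate 1 Afp was at 4.822 (nearest 4.383) and Srebf1 at 6.267 (nearest 7.332). Scd1 was lowest in E545K replicate 2, at 14.26 (nearest 14.4), and Slc5a6 lowest in control replicate 2, at 7.656 (nearest 7.983).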

How the results depend on the processing

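Between E545K and control livers 1 gene passed. The count was 0 with no filter on detection, with the mean over the probes of a gene, with all 25 arrays in a single fit, with the 6-month controls, with controls of both ages and without control replicates 1 and 2. It was 2 with every probe on its own (both of Apoa4), 2 with a trended, robust variance (Apoa4 and Arrdc3) and 3 with array weights (Apoa4, Arrdc3 and Sorl1). On leaving out single replicates it was 0 to 1. With the replicate number as a block it was 0, Apoa4 having an adjusted p of 0.292. Deviations of same-numbered samples correlated at 0.017, 0.385, 0.063 and -0.144 for replicates 1 to 4. The highest correlations with a control of another number were 0.168, 0.090, -0.002 and 0.460. So few values cannot settle whether the numbers pair the samples. A count of 1 was another gene without E545K replicates 1, 2 and 3 (Usp2) and, chosen after seeing the data, without control replicates 2, 3 and 4 (Lcn2, with the lone control left being the array of highest Lcn2, so this call rests on that array). Apoa4 passed in 10 of 26 alternatives (adjusted p 0.00149 to 0.865), with differences of -2.01 to -1.38. Of 153 named genes 81 changed sign under some alternative, none of them called. Between E545K and H1047R livers 0 genes passed under every alternative run, the block included.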
